A study of Homo sapiens with 3 samples.

Results

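A set of 10 genes that the transcription factor NRF2 is known to control, made up of antioxidant enzymes, the enzymes that make glutathione, and aldo-keto reductases, was followed in A549, an established cell line from a human lung adenocarcinoma. The genes, NQO1, HMOX1, AKR1B1, AKR1B10, AKR1C1, AKR1C2, AKR1C3, GCLC, GCLM and TXNRD1, were chosen by name, with earlier results of these data known. A probe was matched to a gene through its transcript accession, which gave 11 probes for 9 of the 10 genes, out of 58201 probes and 22439 named genes on the arrays. No probe carried an accession of AKR1C2. Cells were kept for 48 h with 0.1% DMSO as the vehicle control, with 60 μg/mL cordycepin, an adenosine analog, or with 100 μg/mL cordyceps, a preparation whose content the labels do not describe, and RNA of each condition was labelled with Cy3 and hybridized to 1 Agilent expression array. The labels do not say whether the 2 treated cultures also received DMSO. Per the labels, all 3 cultures grew in DMEM with fetal bovine serum (10%) and penicillin-streptomycin (1%), to which zinc sulfate (16.7 μM), troglitazone (10 μM), an agonist of the nuclear receptor PPARγ, and nicotinamide (10 mM) had been added. Every value below was measured with those additions present, and their part in any value was not tested. There was 1 array per condition, so each ratio compares a pair of arrays, has no replicate behind it and carries no test.

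NRF2, the product of NFE2L2, is held in the cytoplasm by KEAP1, an adaptor that hands it to the CUL3 ubiquitin ligase for destruction. When electrophiles or oxidants modify KEAP1, NRF2 escapes, pairs with a small MAF protein in the nucleus and binds antioxidant response elements in its target genes. A549 cells are known for a mutated KEAP1 and for constitutively high expression of NRF2 targets, aldo-keto reductases among them.

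Values are log2 processed signal minus the 75th percentile of that array, so that 0 is the 75th percentile and a difference of 1 is a 2-fold difference. A probe counted as detected on an array if the scanner software placed 50% or more of its spots well above background, and a difference was called at 2-fold or more. All 11 probes were detected on all 3 arrays, and no spot was saturated. The technical error of a log2 ratio was taken from genes with several probes: the SD of a single probe's ratio, from the 2 brightest probes of 3356 genes, was 0.25 for cordycepin over control, 0.20 for cordyceps over control and 0.28 for cordycepin over cordyceps. For the 731 genes whose probes both had a control signal of at least 1000, as every probe of the set had, it was 0.15, 0.13 and 0.15. These SDs hold probe and spot error but not the spread between cultures. Signals of different probes are not compared with each other.

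The cordyceps array carried an artefact in a corner, the part from row 241 and column 83 onward, which held 10820 probes. Of the 5161 corner probes not detected on the other arrays, 505 were detected with cordyceps, against 173 of 22858 elsewhere. Probes of AKR1B1 and AKR1C3, and the brighter probe of AKR1C1, lie in it. Bright probes in the corner differed little from those elsewhere: with a control signal of at least 10000, the median log2 ratio of cordyceps over control was -0.17 over 346 probes in the corner and -0.16 over 1394 probes elsewhere. Both regions share the same scaling, which the corner also enters. With the corner left out, the median cordyceps ratio of all genes moved from -0.10 to 0.02. Ratios of members outside the corner moved upward too, NQO1 from 0.08 to 0.19 and GCLM from -0.55 to -0.44. The epithelial markers KRT8, KRT18, KRT19, EPCAM and CDH1 were detected on every array, and CD3E, COL3A1, DCN and LUM on none. Of the other markers of blood and vessel cells, CD14 was detected on every array, at signals of 3387, 1559 and 2183 with control, cordycepin and cordyceps, and 2 of 5 PTPRC probes were detected at signals of at most 99.5. VWF and CDH5 were detected on the control and cordycepin arrays alone, at signals of at most 61.3, and PECAM1 on the control array alone, at 24.2. Every culture was of the A549 line, and the source of these marker signals was not tested.

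With cordycepin, 1 of the 9 measured genes, HMOX1, fell at least 2-fold and 0 rose, where 3.57% of all 15917 measured genes fell and 5.95% rose. The 4 aldo-keto reductases, both glutamate-cysteine ligase genes and NQO1 also had ratios below 0 without reaching 2-fold, and TXNRD1 alone had a ratio above 0. With cordyceps, 0 of 9 rose and 0 fell, where 4.19% of 15602 measured genes rose and 3.15% fell. The ratios of cordyceps over control ran from -0.81 for AKR1C1 to 0.74 for GCLC. The 2 sets of ratios share the control array, so an error of that array enters both.

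The count of genes below 0 and the median place the set beside all genes. With cordycepin, 8 of 9 genes were below 0, against 54.0% of all genes, and the median log2 ratio was -0.52, against -0.04 for all genes and -0.12 for the 1227 genes with a control signal of at least 10000. With cordyceps, 7 of 9 were below 0, against 59.6%, and the median was -0.44, against -0.10 for all genes and -0.19 for those of high signal. Of the 1227 genes of high signal, 817 were below 0 with cordycepin and 909 with cordyceps. Without the 3 genes whose brightest probe lies in the corner, the medians over the other 6 genes were -0.57 with cordycepin and -0.27 with cordyceps. At a threshold of 1.5-fold, 4 genes (HMOX1, AKR1C1, GCLC and GCLM) fell and TXNRD1 rose with cordycepin, where 11.8% of all genes fell and 13.3% rose. At the same threshold AKR1C1 fell and GCLC rose with cordyceps, where 12.5% fell and 8.3% rose.

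**Figure D1:**
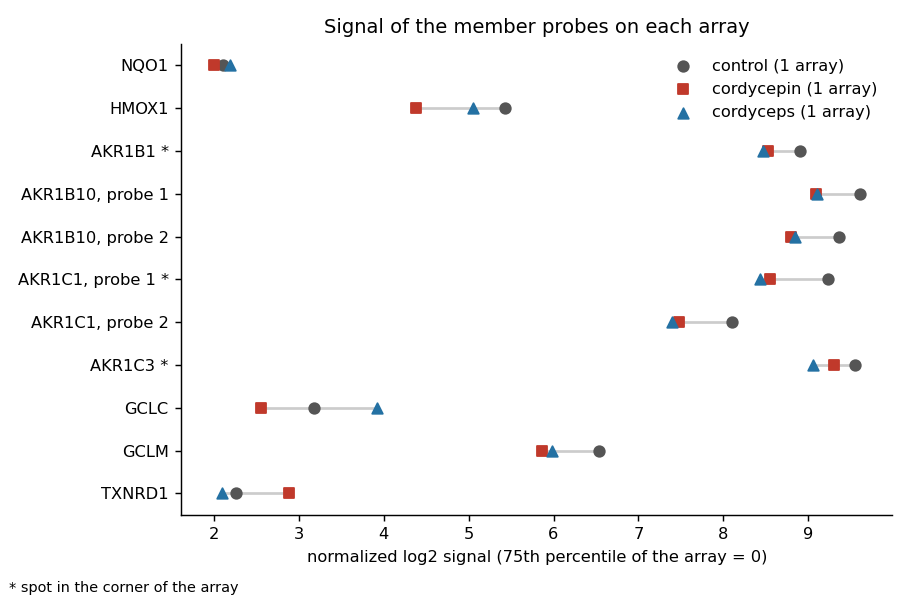
Normalized log2 signal (horizontal axis, 75th percentile of each array at 0) of the 11 probes of the set on the control (circle), cordycepin (square) and cordyceps (triangle) arrays, 1 array each, with a grey line from the lowest to the highest value and a star for spots in the corner. Values are to be read along a row, not between rows: the circle is the highest of the 3 for HMOX1, every aldo-keto reductase probe and GCLM, while GCLC is highest with cordyceps and TXNRD1 with cordycepin.

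HMOX1 encodes heme oxygenase-1, which opens the heme ring to give biliverdin, carbon monoxide and iron. Its normalized log2 signal was 5.43 with control, 4.38 with cordycepin and 5.05 with cordyceps. The cordycepin array was the lowest and the control array the highest. HMOX1 fell with cordycepin by 1.05 on the log2 scale, a 2.07-fold decrease, and its log2 ratio of cordyceps over control was -0.38, below the 2-fold threshold.

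The HMOX1 probe is printed 10 times on each array, which gives it a spot error of its own. The lowest, median and highest signal were 10155, 11393 and 11773 over the 8 control spots that were not outliers, 4472, 4701 and 4878 over 10 cordycepin spots, and 8319, 8623 and 8923 over 10 cordyceps spots. The spots of the 3 arrays did not overlap. The SD between these spots was 0.065, 0.033 and 0.030 on the log2 scale for control, cordycepin and cordyceps, which measures the printing and scanning of 1 RNA and not the variation between cultures. The single HMOX1 spot in the corner had a signal of 8802 with cordyceps, and the 9 spots elsewhere had a geometric mean of 8615. The call with cordycepin lay past the threshold by less than the technical SD. It was lost with quantile normalization (log2 ratio -0.94), with normexp background correction (-0.995) and with a brightness-dependent centring (-0.93).

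**Figure D2:**
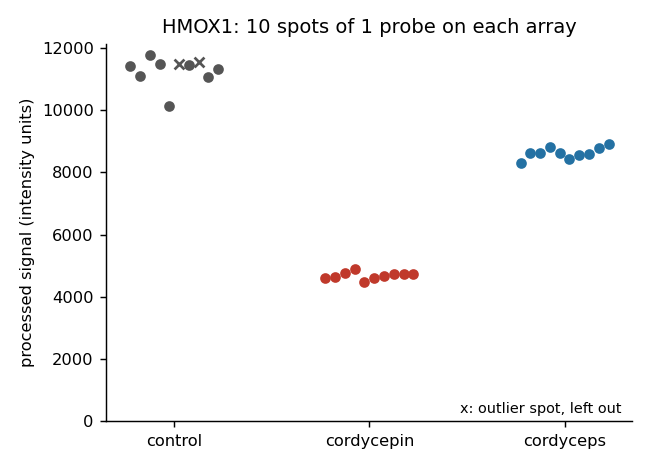
Processed signal (vertical axis, intensity units before scaling between arrays) of each of the 10 HMOX1 spots on the control, cordycepin and cordyceps arrays, with crosses for the 2 control spots that were left out as outliers. Spots lie between 10155 and 11773 with control, 4472 and 4878 with cordycepin, and 8319 and 8923 with cordyceps.

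NQO1 encodes a quinone reductase that reduces quinones without releasing the reactive semiquinone. Its normalized log2 signal was 2.11 with control, 1.99 with cordycepin and 2.19 with cordyceps. The log2 ratios of -0.11 and 0.08 over control were smaller than the technical SD. The log2 ratio of cordycepin over cordyceps was -0.19, within the SD over all genes (0.28) and past that for genes of high signal (0.15).

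The aldo-keto reductases use NADPH to reduce carbonyl groups. AKR1B1, aldose reductase, turns glucose into sorbitol. Its normalized log2 signal was 8.90 with control, 8.53 with cordycepin and 8.47 with cordyceps, which gave log2 ratios of -0.37 and -0.44 over control. AKR1B10 is a close relative of AKR1B1 that also reduces retinal, and its brighter probe had normalized log2 signals of 9.61, 9.10 and 9.10 with control, cordycepin and cordyceps. The log2 ratios were -0.52 and -0.51 over control, and the other AKR1B10 probe gave -0.57 and -0.53. Both AKR1B10 probes lie outside the corner, and their ratios differed by at most 0.05 over the 3 comparisons. The control array was the highest for both genes, and the cordycepin and cordyceps arrays did not differ beyond the technical SD.

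AKR1C1 to AKR1C3 encode hydroxysteroid dehydrogenases: AKR1C1 inactivates progesterone, and AKR1C3 makes testosterone from androstenedione and acts on prostaglandins. The brighter AKR1C1 probe had normalized log2 signals of 9.24 with control, 8.55 with cordycepin and 8.43 with cordyceps. Its log2 ratios over control were -0.68 and -0.81, and those of the other probe, which lies outside the corner, were -0.63 and -0.71. The AKR1C1 ratios are the furthest below 0 of the aldo-keto reductases of the set in both comparisons. AKR1C3, with 1 probe in the corner, had normalized log2 signals of 9.56, 9.30 and 9.06 with control, cordycepin and cordyceps. Its log2 ratios were -0.26 and -0.50 over control. The first was about the size of the technical SD over all genes (0.25) and past that for genes of high signal (0.15). Over the settings tried, the first ranged from -0.52 to -0.16 and the second from -0.53 to -0.23. Processed signals of these genes were high, up to 203896 for AKR1B10 on the control array, and below saturation.

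The AKR1C genes arose by duplication and lie close together on chromosome 10, and a probe of AKR1C1 may take up AKR1C2 RNA. The probe letters are not in the files used here, so the AKR1C1 values could not be told apart from those of AKR1C2, and the values of AKR1C3 carry the same doubt to an unknown degree. The likeness extends to the promoters: in the RefSeq promoter windows of GRCh38.p14, 300 bases around each transcript start, AKR1C1 and AKR1C2 were identical at 98.6% of 292 aligned bases. AKR1C1 and the second of 2 AKR1C3 windows were identical at 79.5% of 283. The stretches printed, AKR1C1 at chr10:4963265-4963404 (+) and AKR1C3 at chr10:5094264-5094403 (+), show how far AKR1C1 and AKR1C3 differ upstream of their starts, with capitals for bases that differ between them (32 in the AKR1C1 line and 29 in the AKR1C3 line, with gaps not marked). The AKR1C1 stretch was found unchanged in the AKR1C2 window.
AKR1C1: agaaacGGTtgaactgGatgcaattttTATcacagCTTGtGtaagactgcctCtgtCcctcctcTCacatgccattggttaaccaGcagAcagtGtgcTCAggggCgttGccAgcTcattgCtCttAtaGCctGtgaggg
AKR1C3: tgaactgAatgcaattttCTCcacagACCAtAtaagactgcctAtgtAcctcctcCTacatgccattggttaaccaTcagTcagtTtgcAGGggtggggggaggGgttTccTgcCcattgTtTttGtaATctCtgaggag

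GCLC and GCLM encode the catalytic and the modifier subunit of glutamate-cysteine ligase, the rate-limiting enzyme of glutathione synthesis. GCLC had normalized log2 signals of 3.17 with control, 2.55 with cordycepin and 3.91 with cordyceps. The 3 arrays stood apart by more than the technical SD, with cordycepin lowest and cordyceps highest. The log2 ratios over control were -0.62 and 0.74, neither at 2-fold, and the log2 ratio of cordycepin over cordyceps was -1.36, a 2.57-fold lower signal with cordycepin. GCLM had normalized log2 signals of 6.53, 5.87 and 5.98 with control, cordycepin and cordyceps. Its log2 ratios over control were -0.67 and -0.55, and the treated arrays differed from each other by 0.11, less than the technical SD. The subunits thus had ratios of opposite sign with cordyceps and of the same sign with cordycepin.

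TXNRD1 encodes the cytosolic thioredoxin reductase, a selenoprotein that keeps thioredoxin reduced. Its normalized log2 signal was 2.26 with control, 2.88 with cordycepin and 2.09 with cordyceps. The cordycepin array was the highest. The log2 ratio was 0.62 with cordycepin, a 1.54-fold higher signal that was not called, and -0.17 with cordyceps, within the SD over all genes (0.20) and past that for genes of high signal (0.13). Under other settings the cordyceps ratio ranged from -0.21 with normexp background correction to 0.10 under median scaling. It was -0.05 without the corner and -0.08 with quantile normalization, both within 0.13.

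The core letters of the antioxidant response element, TGACNNNGC, were searched on both strands of the RefSeq promoter windows. Windows were found for 8 of the 10 genes, all but HMOX1 and AKR1B10, and 2 of the 8, GCLM and TXNRD1, held the motif in at least 1 window. Over all genes with a window the share was 16.1% of 27305, and over all windows 13.3% of 35116. In the GCLM stretch printed, chr1:93909441-93909580 (-), the motif begins at position -34 from the start. In the TXNRD1 stretches, which belong to different starts, the motif begins at position -99 at chr12:104215629-104215768 (+) and at position -102 at chr12:104286882-104287021 (+). The first TXNRD1 window of 300 bases holds another match, outside the stretch, that crosses the start. GCLM and TXNRD1, the members with the motif in a window, had cordycepin log2 ratios of -0.67 and 0.62, on opposite sides of 0. A match describes these letters and does not by itself show binding, which was not measured here. Letters outside the windows of 300 bases were not searched, so a member without a match may hold the motif elsewhere. The stretches carry the motif in capitals, read on the strand of the gene, where GCTTAGTCA and GCTTTGTCA are the motif of the other strand.
GCLM: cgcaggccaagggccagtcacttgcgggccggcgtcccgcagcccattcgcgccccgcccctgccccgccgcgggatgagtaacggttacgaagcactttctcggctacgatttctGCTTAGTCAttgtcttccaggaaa
TXNRD1, start 1: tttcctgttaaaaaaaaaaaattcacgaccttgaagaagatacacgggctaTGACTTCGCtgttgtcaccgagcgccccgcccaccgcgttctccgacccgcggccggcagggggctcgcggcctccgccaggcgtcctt
TXNRD1, start 2: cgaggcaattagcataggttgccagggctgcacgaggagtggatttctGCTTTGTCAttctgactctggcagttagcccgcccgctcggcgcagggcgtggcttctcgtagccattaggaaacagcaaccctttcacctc

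**Figure D3:**
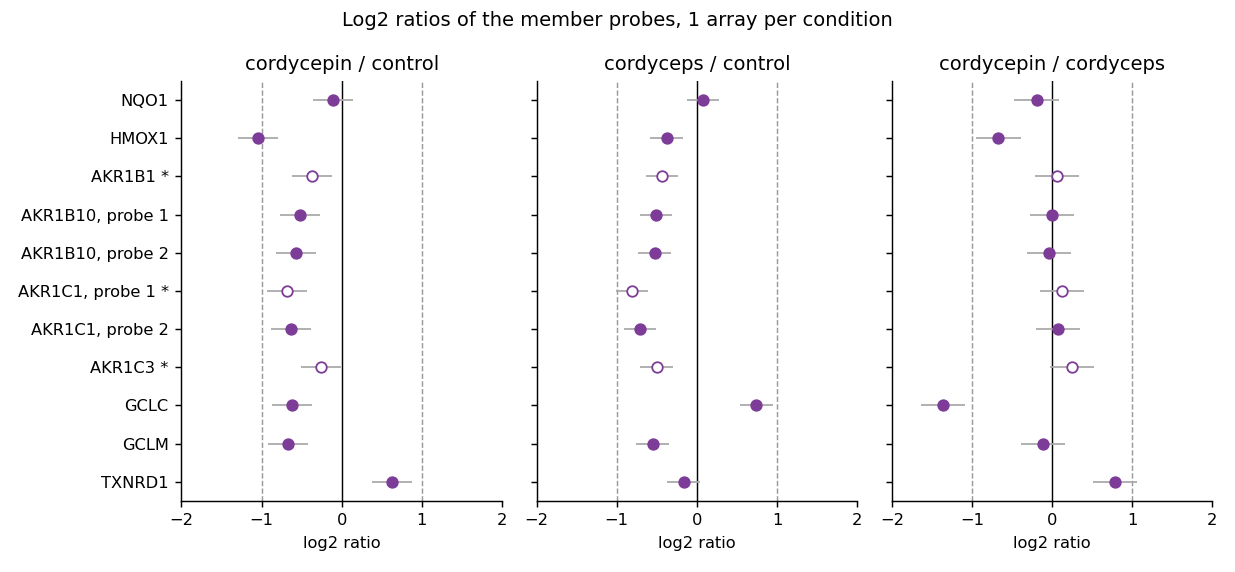
Log2 ratios (horizontal axis) of the 11 probes for cordycepin over control, cordyceps over control and cordycepin over cordyceps, 1 array per condition. Bars are the technical SD of a single probe's ratio (0.25, 0.20 and 0.28), dashed lines mark 2-fold, and open points and stars mark spots in the corner: HMOX1 in the first panel and GCLC in the third lie beyond a dashed line.

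The treated arrays differ in agent and in dose, 60 μg/mL of a single compound against 100 μg/mL of a preparation, so their direct ratio gives only the 2 readings side by side. GCLC was lower with cordycepin, 0 genes of the set were higher, and the other 8 stayed under 2-fold, where 5.57% of 15482 measured genes were at least 2-fold lower and 7.75% higher. TXNRD1 (0.79) and HMOX1 (-0.67) had the next furthest log2 ratios of cordycepin over cordyceps from 0. The 4 aldo-keto reductases had log2 ratios between -0.003 and 0.25, within the technical SD over all genes, though the 0.25 of AKR1C3 passes the SD for genes of high signal. With median scaling, which moves the median of all genes to -0.49, these ratios are below 0. The median over the set was -0.003, against 0.04 for all genes, and 5 of 9 genes were below 0, against 46.6%. At 1.5-fold, GCLC and HMOX1 were lower and TXNRD1 was higher with cordycepin, where 12.7% of all genes were lower and 16.9% higher.

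Brightness was examined because 6 of the 9 genes had a control signal above 10000. All genes were binned by mean normalized log2 signal, and the median log2 ratio within bins from 2 to 10 lay between -0.13 and -0.02 with cordycepin and between -0.21 and -0.02 with cordyceps. With cordycepin HMOX1 lay below the 5th percentile of its bin (-0.72), as did AKR1C1 and AKR1B10 in theirs (-0.57 and -0.45). With cordyceps AKR1C1, AKR1B10 and AKR1C3 lay below the 5th percentile (-0.59 for the first and -0.46 for the others), and GCLC lay above the 95th percentile of its bin (0.54).

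**Figure D4:**
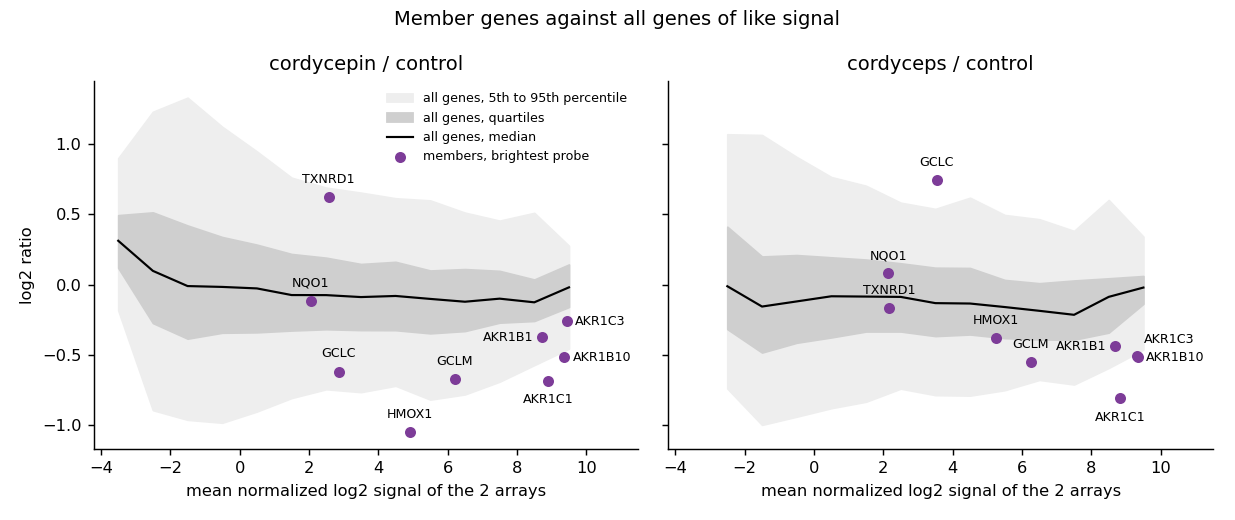
Log2 ratio over control (vertical axis) against the mean normalized log2 signal of the 2 arrays compared (horizontal axis), for cordycepin and cordyceps. The line and bands are the median, quartiles and 5th to 95th percentiles of all measured genes in bins of 1, and points are the 9 genes by their brightest probe: HMOX1, AKR1C1 and AKR1B10 lie under the lower band with cordycepin, and GCLC lies over the upper band with cordyceps.

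Other genes of the pathway were taken from a list of 41, of which 40 had a probe. With cordycepin, 1 of 39 measured genes fell and 0 rose, where 3.57% of all genes fell and 5.95% rose, and the median log2 ratio was -0.22, against -0.04 for all genes. Of the 39, 24 were below 0, against 54.0% of all genes. ABCC3, which exports glucuronide and glutathione conjugates, fell by 1.60 on the log2 scale by its brighter probe, from 7.13 with control to 5.53 with cordycepin, while the other probe gave -0.74. All 6 genes that supply NADPH, the cofactor of the aldo-keto reductases, NQO1 and thioredoxin reductase, had log2 ratios below 0, from -0.76 to -0.14, with 0 called. The 10 detoxification and efflux genes had a median of -0.50, with 9 below 0, and the 7 glutathione genes a median of -0.59, with 4 below 0. Other groups had medians above 0: 0.14 for the thioredoxin genes, with 3 of 4 above 0, 0.09 for the iron and heme genes, with 3 of 4 above 0, and 0.12 for the regulators of NRF2, with 4 of 7 above 0.

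With cordyceps, 2 of 40 genes of the list fell and 1 passed 2-fold upward, where 3.15% of all genes fell and 4.19% rose. The median log2 ratio was -0.26, against -0.10 for all genes, and 0.0104 under median scaling, against 0.17 for all genes. ALDH3A1, an aldehyde dehydrogenase, fell by 1.36 on the log2 scale by its brighter probe, which lies in the corner, and by 1.26 by a probe outside it. ABCC2, a conjugate exporter of the ABCC3 family, fell by 1.07 on the log2 scale, a call that was lost under 5 alternatives, with log2 ratios from -0.98 with the percentile over probes detected on all arrays to -0.80 with median scaling. The gene that passed upward was NFE2L2 itself, by its single probe: its signal was 4.70 with control and 5.35 with cordycepin, not well above background on either array, and 1039 with cordyceps. That probe lies in the corner, where dim probes were bright on the cordyceps array, and without the corner the list has 0 genes higher and 1 lower. No level of NFE2L2 is therefore given for control or cordycepin.

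The other regulators of NRF2 were not called in either comparison. KEAP1 had log2 ratios of -0.28 with cordycepin and -0.11 with cordyceps, and CUL3 had 0.12 and 0.06. SQSTM1, whose product p62 can draw KEAP1 away from NRF2, had 0.28 and 0.86. BACH1, a repressor that occupies the same elements, had 0.14 and 0.49 by a probe in the corner. Among the small MAF partners, MAFF had 0.90 and 0.76, MAFG -0.25 and 0.16, and MAFK -0.27 and 0.04.

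Between the treated arrays, 3 of 40 genes of the list were at least 2-fold lower with cordycepin and 2 higher, where 5.57% of all genes were lower and 7.75% higher. SLC7A11, the cystine importer that feeds glutathione synthesis, had a log2 ratio of cordycepin over cordyceps of -1.47, from ratios over control of -0.76 and 0.72. ABCC3 had -1.60 by its brighter probe and -0.73, under 2-fold, by the other, and NFE2L2 was lower through its corner spot. PRDX1, a peroxiredoxin that reduces hydrogen peroxide, had 1.09, from ratios over control of 0.32 with cordycepin and -0.77 with cordyceps. The dimmer PRDX1 probe had 1.07, from 0.04 and -1.02. ALDH3A1 had 1.02, from -0.34 and -1.36. Neither call held throughout: PRDX1 had 0.56 with median scaling, 0.88 with no scaling and 0.98 without the corner, and ALDH3A1 was under 2-fold in 7 alternatives, from 0.48 with median scaling to 0.996 with the median over probes, and 0.97 by its probe outside the corner.

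**Figure D5:**
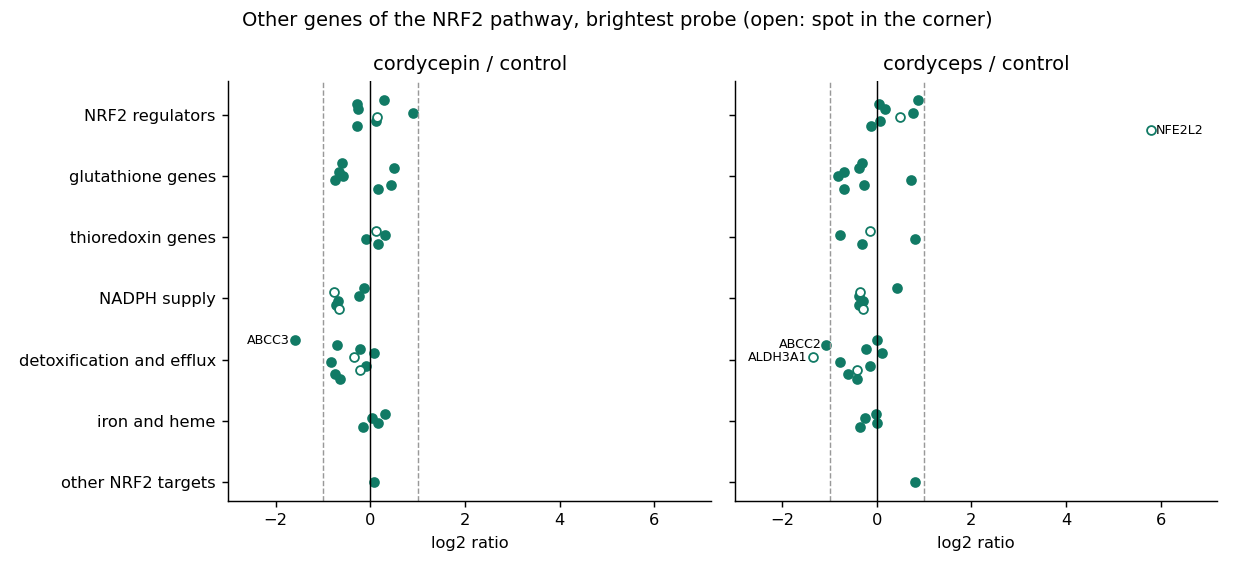
Log2 ratio over control (horizontal axis) of the other genes of the pathway by their brightest probe, in 7 groups by role (vertical axis), for cordycepin and cordyceps. Open points are spots in the corner and dashed lines mark 2-fold: ABCC3 lies beyond the line with cordycepin, and ABCC2, ALDH3A1 and NFE2L2 with cordyceps.

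Of 7 further aldo-keto reductases, 6 were measured and 0 were called with either agent. AKR1B15, a neighbour and near copy of AKR1B10, had log2 ratios over control of -0.69 with cordycepin and -0.60 with cordyceps. AKR1C4 had -0.82 and -0.65 by its brighter probe, which lies in the corner, and 0.31 with cordycepin by a dim probe outside it, which was not well above background with cordyceps. These probes may take up RNA of AKR1B10 and of the AKR1C genes. AKR1A1, a more distant member of the family, had -0.11 and -0.16, and AKR1E2, AKR7A2 and AKR7A3 had 0.63, 0.23 and 0.29 with cordycepin and -0.19, -0.33 and -0.34 with cordyceps. The AKR7A3 probe lies in the corner. With cordycepin 3 of the 6 were below 0, against 54.0% of all genes, and with cordyceps all 6 were, against 59.6%.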

How the data were processed

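The authors deposited the scanner output of 3 one-colour Agilent arrays, made with Feature Extraction 11.5.1.1 on an hg19 probe design, whose intensity values are background-subtracted signals not scaled between arrays. The deposited value table of the series held the mean intensity per probe for 58186 to 58192 of 58201 probes (tolerance 0.0001). The methods name Cy3 and Cy5 and GeneSpring, whereas the files hold 1 Cy3 channel per array. All arrays lie on 1 slide scanned once. Control and outlier spots (63 to 106 per array) were left out and spots of a probe averaged. The log2 of the deposited intensity minus each array's 75th percentile (signals of 224 to 260) was compared with no pseudocount. Detected probes numbered 28494 with control, 27666 with cordycepin and 24505 with cordyceps; precision is limited by there being 1 array per condition. A ratio was measured where both arrays detected a probe and a bound, against the lowest signal well above background (18.7 to 34.5), where 1 did. A gene was its brightest probe by mean over the arrays.

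Accessions were named through the GRCh38.p14 RefSeq gene table (31104 of 58201 found), used for names only. Members, lists and comparisons were chosen with earlier results of these data known. Every member was named with all probes, and genes of the other lists where called at 2-fold or where they regulate NRF2; AKR1A1, AKR1B15, AKR1C4, AKR1E2, AKR7A2 and AKR7A3 were named after their values were seen. Alternatives were other scalings, normexp (limma 3.58.1, offset 50, on the median signal), other detection rules, outlier spots kept, the value table, the median over probes, 1.5-fold and 3-fold thresholds, the corner left out and, added later, a running median over 1001 probes of like signal. Steps were tested on simulated data. Python 3.11.15 (numpy 2.4.6, pandas 2.3.3, Biopython 1.88) and R 4.3.3 were used.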

Additional observations from a re-analysis of the deposited data

How the results depend on the processing

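No paired analysis was possible because each condition has 1 array. No ratio called at 2-fold changed sign. Of the others, the cordyceps ratio of TXNRD1 (0.10), the cordyceps median of the list and the ratios of cordycepin over cordyceps of AKR1B1 (-0.47), AKR1C1 (-0.41) and AKR1C3 (-0.29) changed sign under median scaling, and AKR1B1, AKR1B10, AKR1C1 and the medians near 0 for cordycepin over cordyceps also under other settings. Counts are genes at least 2-fold higher or lower among the 10 members (set) or the 41 other genes (list).

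Median scaling shifts the median of all genes to -0.31 with cordycepin, 0.17 with cordyceps and -0.49 for cordycepin over cordyceps, and the split of all genes higher and lower from 947 and 569 to 596 and 1179, from 654 and 492 to 962 and 208, and from 1200 and 862 to 459 and 2640. With it, the cordycepin medians were -0.78 for the set and -0.48 for the list, which had 5 lower. With cordyceps the medians were -0.17 and 0.0104, the set had 1 higher (GCLC, 1.01), and the list 5 higher and 1 lower. For cordycepin over cordyceps the medians were -0.54 and -0.54, the set had 2 lower, and the list 0 higher and 7 lower.

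At 1.5-fold the set had 1 higher and 4 lower with cordycepin, 1 and 1 with cordyceps and 1 and 2 for cordycepin over cordyceps. The list had 1 and 13 of 39 measured genes, 6 and 8 of 40, and 5 and 5 of 40. Of all genes, 13.3% were higher and 11.8% lower with cordycepin, 8.3% and 12.5% with cordyceps, and 16.9% and 12.7% for cordycepin over cordyceps. At 3-fold the set had 0 lower with cordycepin and 0 for cordycepin over cordyceps, and the list 0 lower with cordyceps and 0 higher for cordycepin over cordyceps. Of all genes at 3-fold, 149 of 15917 were lower with cordycepin and 85 of 15602 with cordyceps. For cordycepin over cordyceps, 405 of 15482 were higher and 370 lower. Quantile normalization, normexp and brightness-dependent centring each left 0 of the set lower with cordycepin.

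In the list, no scaling gave 2 lower with cordycepin and 0 higher for cordycepin over cordyceps. Detection on both arrays gave 0 higher with cordyceps. The percentile over probes detected on all arrays gave 1 lower with cordyceps and 1 higher for cordycepin over cordyceps, quantile normalization 1 lower with cordyceps, and normexp and the median over probes 1 higher each for cordycepin over cordyceps. Without the corner it had 0 higher and 1 lower with cordyceps and 0 higher for cordycepin over cordyceps, and with centring 2 higher and 1 lower, and 1 higher. The cause of these changes was not tested, apart from the threshold and the genes removed.

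Of the other values, 212 counts and medians and 411 log2 ratios of single genes stayed within the technical spread or 1.5 times the count, and 47 log2 ratios moved. HMOX1 ranged from -1.31 to -0.93 with cordycepin and GCLC from -1.90 to -1.34 for cordycepin over cordyceps. With 1 array per condition, variation between cultures was not measured, and 1 array's error enters each comparison that uses it.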
